A study of Saccharomyces cerevisiae with 8 samples.

Results

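Transcript levels of 50 genes of amino acid biosynthesis in budding yeast, Saccharomyces cerevisiae, were read from 1-colour Agilent arrays. The set holds GCN4, the transcriptional activator of these pathways, and 49 genes of the arginine (6), histidine (4), branched chain (10), lysine (7), aromatic (9), threonine (5), serine (4), proline (2) and asparagine (2) pathways. Each gene was found by its name or systematic name among the 6225 genes on the array, and each of the 50 had 1 probe, printed as 2 spots. The study compared control cells with cells labelled as carrying a mutant TFIIB (M1 in the series' design text), each grown without hydrogen peroxide (H2O2) or with 4 mM of it. TFIIB is the general factor that places RNA polymerase II at promoters, and the labels used here do not give the base change behind M1. All 8 samples are of the CENPK.2-1C strain, grown in YPD and taken in exponential phase at an OD600 of 1.0, with 2 samples for each of the 4 groups. The design text calls these 2 biological replicates.

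Wild-type yeast can make all the amino acids of its proteins. Most of the pathways are drawn on less when the medium supplies amino acids, as the rich medium YPD does. Which of the pathways are complete in the strain used here was not tested. Gcn4 is held low mainly at translation: short upstream reading frames in its mRNA keep ribosomes from the coding sequence until amino acids run short, when the kinase Gcn2 phosphorylates eIF2 and translation of Gcn4 rises. A transcript measurement therefore reports GCN4 mRNA and the mRNA of its target genes, not the amount of Gcn4 protein.

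All 50 probes were well above background, by the scanner software's flag, on all 4 control arrays, and all 50 were tested. Scanner signal is given in units, and relative signal is a probe's signal divided by the 75th percentile of all probes on the same array. That percentile was 15424 and 15403 units on the untreated control arrays and 9185 and 12898 units on the treated ones. For the arrays labelled mutant it was 10.96 and 9.87 units without H2O2 and 9.95 and 14.5 units with H2O2, so relative signals there are multiples of a near-background level. The control arrays without H2O2 were close copies of each other. Log2 signals had an SD of 0.0992 between them, and this variance was 1.44 times the one between duplicate spots. For the control arrays with H2O2 the SD was 0.316 and the ratio 44.8. Whether the first pair came from separate cultures was not tested, and p-values against that pair assume that they did. All 8 arrays lie on 1 slide, where 1 row holds the samples with H2O2 and the other those without, so row and H2O2 cannot be told apart.

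In control cells, 9 of these genes passed the test for H2O2 in the main fit, in both directions. The lower ones were CPA1 of arginine synthesis, HIS4 and HIS5 of histidine synthesis, LYS1 of lysine synthesis, ARO3 of aromatic synthesis and SER3 of serine synthesis. The higher ones were LEU9 of leucine synthesis, ARO7 of phenylalanine and tyrosine synthesis and PRO2 of proline synthesis. At an adjusted p under 0.05 (limma, over 6045 genes), 3 of 50 members (6%) were higher against 13.1% of all genes tested, and 6 (12%) were lower against 14% of all genes. In either direction it was 18% of members against 27.1% of genes, so the members' share lies below the background, with no test of that difference. The median log2 change of the 50 was 0.11, with a range of -1.57 to 0.87, and that of all genes was 0.03. Both H2O2 arrays lay above both control arrays for 25 members and below both for 15, where 45.3% and 41.3% of all genes did so. No call of these 9 survived when the control arrays without H2O2 were averaged and counted as 1 sample, a setting that left 0.629% of genes higher and 1.42% lower, and in which 7 members had an unadjusted p under 0.05. CPA1 came closest, with an adjusted p of 0.0555. The main fit pools each gene's spread over the 4 groups, the arrays labelled mutant among them. With the compared groups fitted alone, 14 members were higher and 12 lower, beside 1906 and 1567 of 6045 genes. Also called there were ARG4, HIS1, HIS7, LEU4, ILV1, ILV3, BAT2, LYS4, LYS20, TRP3, TRP4, ARO2, HOM6, THR1, SER2, SER33 and PRO1. With normexp background correction 18 members were higher and 13 lower, beside 2286 and 1923 of 6045 genes.

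**Figure D1:**
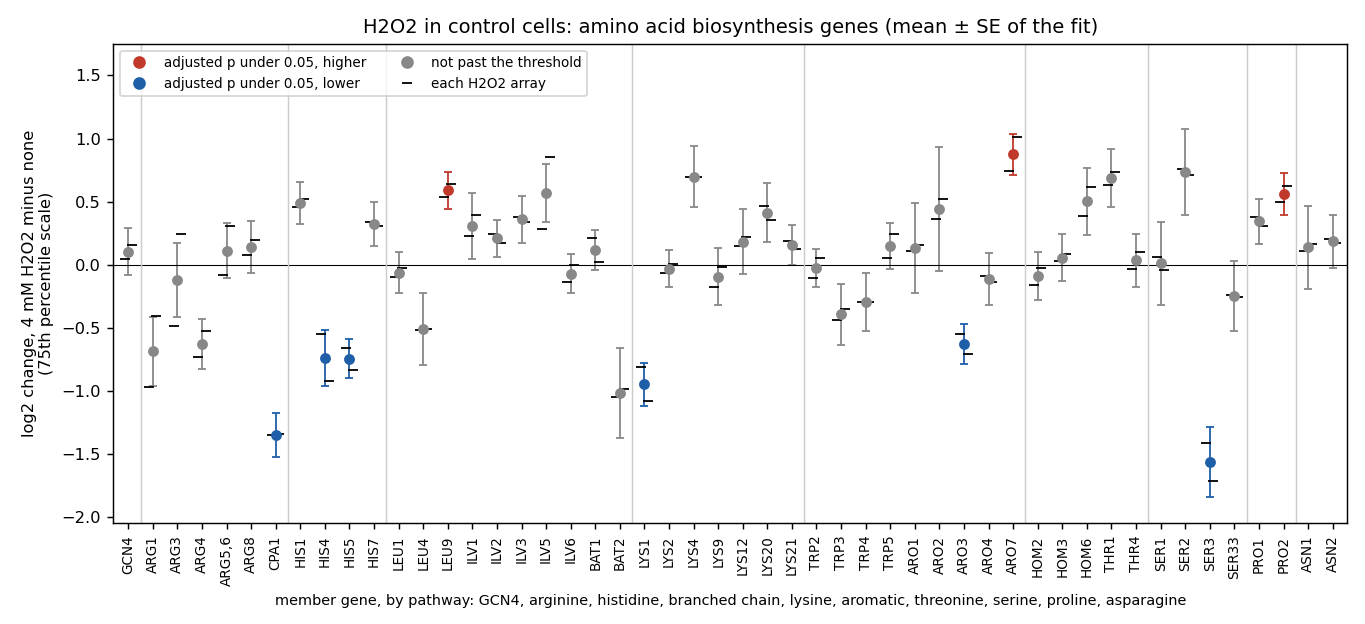
The log2 change with 4 mM H2O2 in control cells (vertical axis, 75th percentile scale) is drawn for each of the 50 genes, grouped by pathway along the horizontal axis. Points are fitted changes with their standard error, ticks are each H2O2 array minus the mean of the control arrays without H2O2, red and blue mark an adjusted p under 0.05. SER3 lies lowest at -1.57 and ARO7 highest at 0.87, and most pathways hold points on both sides of 0.

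GCN4 (YEL009C, chromosome V, 138918 to 139763, minus strand in release R64-1-1, as are all positions below) showed no change that the test could detect in the main fit. Its relative signal was 5.82 and 5.63 on the control arrays without H2O2 and 5.91 and 6.38 on those with H2O2. The H2O2 arrays lay above both others by a small margin. The log2 change was 0.10 ± 0.19 (standard error, 2 arrays a group, adjusted p = 0.722), with a 95% interval of -0.34 to 0.54. It turned to -0.38 when arrays were scaled on the 10 E1A spike-in probes (RNA of known amount added to each sample). That scale lowers every log2 change by the same amount: the median over all genes went from 0.03 to -0.45 and that of the members from 0.11 to -0.37. With normexp background correction the GCN4 change was 0.14 and was called higher (limma, adjusted p = 0.0440). In that setting 2286 of 6045 genes were higher and 1923 lower.

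Among the 6 arginine genes, CPA1 fell and none rose (median -0.38). CPA1 (YOR303W, chromosome XV, 882899 to 884134, plus strand) encodes the small subunit of the carbamoyl phosphate synthetase that serves arginine, and its mRNA has an upstream reading frame through which arginine lowers translation. Its relative signal was 1.63 and 1.57 without H2O2 and 0.626 and 0.629 with H2O2. The 2 groups lay far apart and each was tight. The log2 change was -1.35 ± 0.18 (adjusted p = 0.00480), 2.55-fold lower. ARG1 (argininosuccinate synthetase) and ARG4 (argininosuccinate lyase), which complete the pathway, had log2 changes of -0.69 and -0.63 that missed the threshold (adjusted p = 0.106 and 0.0539). ARG1, ARG4 and the other members named below with a change that missed the threshold, apart from isoenzymes, were chosen after their values were seen.

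In the histidine pathway, 2 of 4 genes fell (median -0.21). HIS4 (YCL030C, chromosome III, 65934 to 68333, minus strand) encodes an enzyme that catalyses several steps of the pathway and is a classic Gcn4 target. Its relative signal was 4.55 and 4.73 without H2O2 and 3.16 and 2.44 with H2O2. HIS4 had a log2 change of -0.74 ± 0.23 (adjusted p = 0.0490), just inside the threshold, and the call was lost when arrays were scaled on their median or when dim probes were not filtered out.

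HIS5 (YIL116W, chromosome IX, 142928 to 144085, plus strand) encodes histidinol-phosphate aminotransferase. It read 1.46 and 1.44 relative units without H2O2 and 0.917 and 0.812 with it. The fall of 0.75 ± 0.15 on the log2 scale (adjusted p = 0.0147) was 1.68-fold. Histidine genes did not all go the same way. HIS1, which encodes the first enzyme of the pathway, read 3.22 and 3.18 without and 4.37 and 4.59 with H2O2, a log2 change of 0.49 that missed the threshold (adjusted p = 0.0729). HIS7 (imidazole glycerol phosphate synthase) had a change of 0.32 (adjusted p = 0.211).

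The branched chain pathway makes leucine, isoleucine and valine, and 1 of its 10 genes rose while none fell (median 0.16). LEU9 (YOR108W, chromosome XV, 523027 to 524841, plus strand) encodes 1 of the alpha-isopropylmalate synthases that begin leucine synthesis. Its relative signal was 1.55 and 1.54 without H2O2 and 2.25 and 2.41 with H2O2. The rise was 0.59 ± 0.14 on the log2 scale (adjusted p = 0.0254). LEU4, which encodes the other such synthase, went the other way without passing the test: 8.73 and 8.65 without H2O2 against 6.07 and 6.11 with it, a log2 change of -0.51 (adjusted p = 0.227). BAT2, the cytosolic branched chain aminotransferase, read 3.60 and 3.44 without and 1.70 and 1.77 with H2O2. Its log2 change of -1.02 ± 0.36 was among the largest of the 50 but did not pass in the main fit (adjusted p = 0.0766). The spread of that fit takes in the arrays labelled mutant, where BAT2 was never well above background. With the compared groups fitted alone BAT2 passed. BAT1, the mitochondrial aminotransferase, had a change of 0.12 (adjusted p = 0.623), which turned to -0.36 on the spike-in scale and -1.03 after quantile normalization. For ILV5 (acetohydroxyacid reductoisomerase) it was 0.57 (adjusted p = 0.108).

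Of 7 lysine genes, LYS1 fell and none rose (median 0.16). LYS1 (YIR034C, chromosome IX, 419615 to 420736, minus strand) encodes the saccharopine dehydrogenase of the last step. It read 1.11 and 1.14 relative units without H2O2 and 0.639 and 0.532 with H2O2. The log2 change was -0.95 ± 0.17 (adjusted p = 0.00917), 1.93-fold lower. No gene of an earlier step passed the test, and 2 of those had negative and 4 positive changes. LYS4 (homoaconitase, an iron-sulphur enzyme) read 1.86 and 1.89 without and 3.04 on each array with H2O2, a log2 change of 0.70 that missed the threshold (adjusted p = 0.0709). LYS20 and LYS21, both homocitrate synthases of the first step, had log2 changes of 0.41 and 0.16 (adjusted p = 0.238 and 0.505).

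Among 9 aromatic genes, ARO7 rose and ARO3 fell (median -0.03). ARO7 (YPR060C, chromosome XVI, 674861 to 675631, minus strand) encodes chorismate mutase, at the branch towards phenylalanine and tyrosine and away from tryptophan. Its relative signal was 0.332 and 0.344 without H2O2 and 0.564 and 0.681 with H2O2. The log2 change was 0.87 ± 0.16 (adjusted p = 0.0101), 1.83-fold higher. ARO3 (YDR035W, chromosome IV, 521816 to 522928, plus strand) encodes the DAHP synthase that phenylalanine inhibits, at the entry of the pathway. It read 0.131 and 0.116 without and 0.0842 and 0.0755 with H2O2, a log2 change of -0.63 ± 0.16 (adjusted p = 0.0283). ARO4, the tyrosine-inhibited DAHP synthase, had -0.11 (adjusted p = 0.718). On the tryptophan branch, TRP3, which encodes part of anthranilate synthase, had -0.40 (adjusted p = 0.271).

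None of the 5 threonine genes passed the test, with log2 changes of -0.09 to 0.69 and a median of 0.05. One of them had an unadjusted p under 0.05: THR1 (homoserine kinase) read 1.89 and 1.83 without and 2.89 and 3.10 with H2O2, a log2 change of 0.69 (adjusted p = 0.0643). HOM6 (homoserine dehydrogenase) had 0.50 (adjusted p = 0.214).

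SER3 had the largest change of the 50 genes on this scale. SER3 (YER081W, chromosome V, 322686 to 324095, plus strand) encodes phosphoglycerate dehydrogenase, which diverts a glycolytic intermediate to serine. Its relative signal was 6.76 and 6.14 without H2O2 and 2.41 and 1.96 with H2O2. The log2 change was -1.57 ± 0.28 (adjusted p = 0.00912), 2.97-fold lower. Of the other 3 serine genes none passed. SER33, which encodes the second phosphoglycerate dehydrogenase, read 1.37 and 1.36 without and 1.15 and 1.14 with H2O2 (log2 change -0.25, adjusted p = 0.547). SER2 (phosphoserine phosphatase, the last step) had a log2 change of 0.73 (adjusted p = 0.156).

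PRO2 rose, and PRO1, the enzyme before it, had a change of the same sign. PRO2 (YOR323C, chromosome XV, 921535 to 922905, minus strand) encodes gamma-glutamyl phosphate reductase. It read 2.39 and 2.37 relative units without H2O2 and 3.36 and 3.67 with H2O2. The log2 change was 0.56 ± 0.17 (adjusted p = 0.0474), 1.48-fold higher, and the call was lost when arrays were scaled on their median. That of PRO1 (gamma-glutamyl kinase) was 0.34 (adjusted p = 0.205). The asparagine synthetase genes ASN1 and ASN2 had log2 changes of 0.14 and 0.19 (adjusted p = 0.785 and 0.557).

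**Figure D2:**
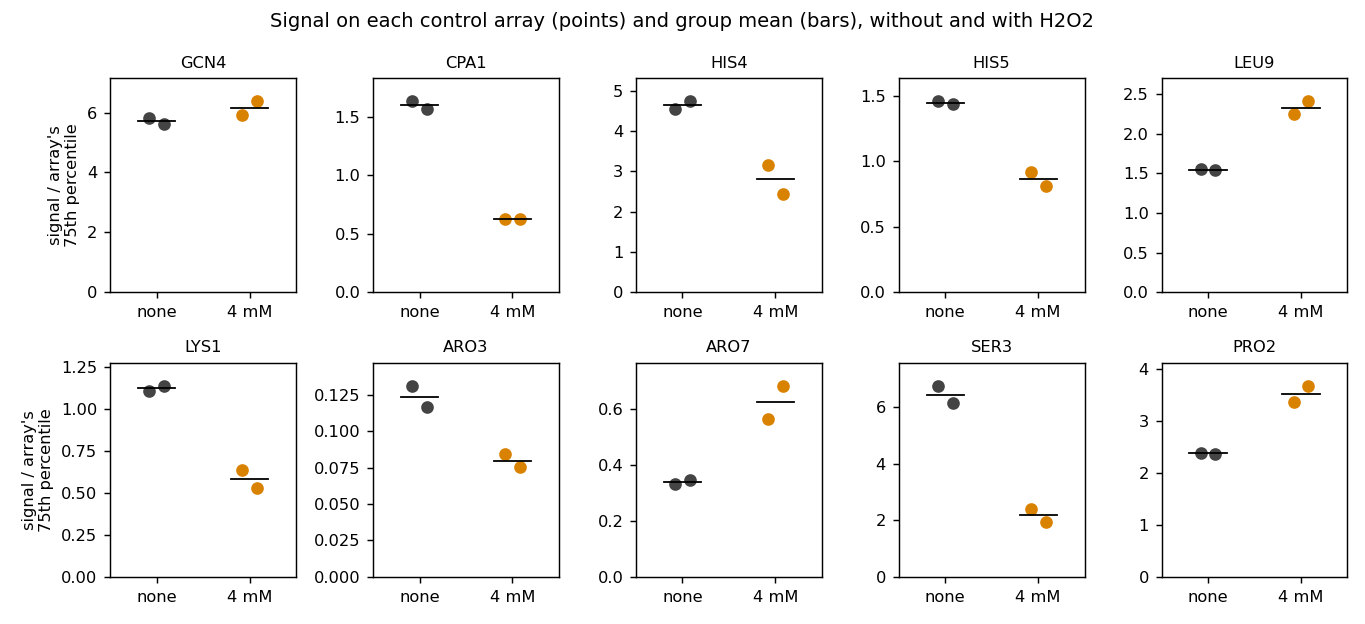
Relative signal (vertical axes from 0, signal divided by the array's 75th percentile) is drawn for GCN4 and the 9 members past the threshold on each control array without H2O2 and with 4 mM H2O2; bars are group means. GCN4 stays between 5.63 and 6.38. For each of the 9 called genes the groups do not overlap, and they do not for GCN4 either. The same holds for 40 of the 50 members. Among all genes tested, 45.3% had both H2O2 arrays above both control arrays and 41.3% had both below.

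The calls depended on the scale, on the arrays without H2O2 and, as given above, on the background correction and the groups that set the spread. On the E1A spike-in scale 7 members fell and none rose, among them CPA1, HIS4, HIS5, LYS1, ARO3 and SER3, beside ARG4. There, 1.34% of all genes were higher and 19.3% lower. ARO7, LEU9 and PRO2 had log2 changes of 0.40, 0.11 and 0.08 on that scale (adjusted p = 0.333, 0.804 and 0.840). After quantile normalization none of the 50 passed in limma (3 at an unadjusted p under 0.05), where 0.596% of all genes were higher and 1.22% lower. Without control replicate 1 of the arrays without H2O2 no member passed, and without replicate 2 of them CPA1 alone did (adjusted p = 0.0470). CPA1 was also the sole member called without replicate 2 of the control arrays with H2O2. Its log2 change was -1.32 to -1.38 over these 3 settings and its adjusted p 0.0282 to 0.0622.

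Within pairs of isoenzymes the 2 genes of a pair can be set against each other, since a single scale factor per array cancels in the difference of their log2 changes. Quantile normalization has no such single factor. The test of these 6 differences was chosen after seeing the data. Its spread takes in the arrays labelled mutant, where BAT2, LEU4, SER3, SER33, ARO4, ASN1 and ASN2 were never well above background. SER3 changed by -1.32 ± 0.22 relative to SER33 (95% interval -1.84 to -0.80, adjusted p = 0.00790), and LEU4 by -1.10 ± 0.31 relative to LEU9 (-1.83 to -0.37, adjusted p = 0.0387). With the control arrays without H2O2 averaged, these became adjusted p = 0.0854 and 0.194. BAT1 against BAT2 differed by 1.14 ± 0.42 (0.14 to 2.13) and did not pass (adjusted p = 0.0887). It turned to -0.27 after quantile normalization, where LEU4 against LEU9 was -1.43 and SER3 against SER33 -1.27, with no test. In ARO3 against ARO4 the difference was -0.52 (-1.10 to 0.07, adjusted p = 0.171; -0.050 after quantile normalization), in LYS20 against LYS21 0.26 (-0.30 to 0.82, adjusted p = 0.470), and in ASN1 against ASN2 -0.05 (-0.69 to 0.59, adjusted p = 0.906; 0.39 after quantile normalization). These intervals still hold differences of over 0.5 on the log2 scale, so they do not show that the genes of a pair moved alike. Isoenzyme genes resemble each other in sequence, and how well each probe tells its gene from its partner was not analysed here.

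**Figure D3:**
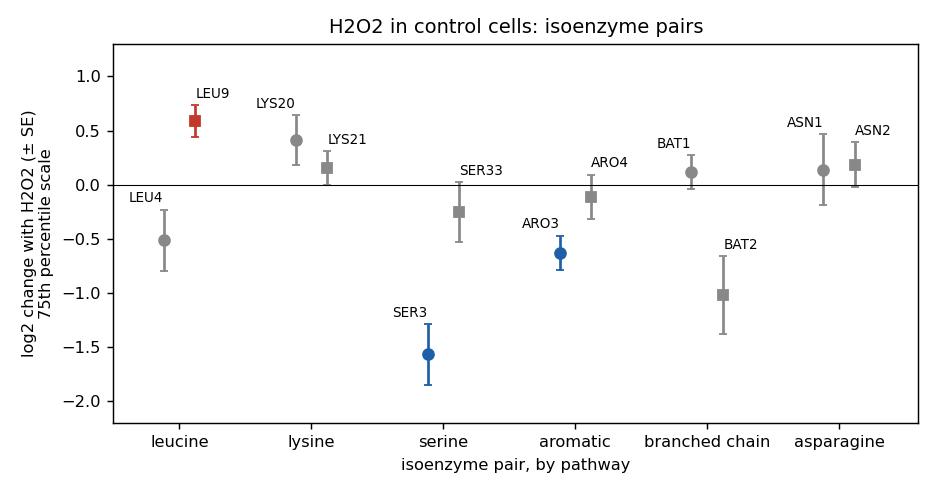
The log2 change with 4 mM H2O2 in control cells (vertical axis, with its standard error) is drawn for both genes of 6 isoenzyme pairs, placed by pathway along the horizontal axis. Red and blue mark an adjusted p under 0.05. SER3 at -1.57 lies below SER33 at -0.25, LEU9 at 0.59 above LEU4 at -0.51, and the asparagine pair at 0.14 and 0.19 lies together.

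Another 5 lists of related genes were read in the same fit, in which 13.1% of all genes were higher and 14% lower, or 0.629% and 1.42% with the control arrays without H2O2 averaged. Of 16 genes that set the translation or stability of Gcn4, 7 rose and 1 fell with H2O2 in control cells (median 0.55, with 15 of 16 above both control arrays, as 45.3% of all genes were). Those of the rises with the smallest p were GCD10, for a subunit of a tRNA methyltransferase that matures the initiator tRNA, at 0.94 (adjusted p = 0.0107), and the eIF2B subunit genes GCD7 and GCD2 at 0.71 and 0.89 (adjusted p = 0.0138 and 0.0169). The kinase gene GCN2, named after its value was seen, rose from 0.206 and 0.201 to 0.321 and 0.328 relative units (log2 change 0.67, adjusted p = 0.0271). PCL5, for the cyclin that directs Gcn4 to degradation and itself a Gcn4 target, fell from 1.03 and 0.980 to 0.463 on each array (log2 change -1.12, adjusted p = 0.00493). On the spike-in scale the list's median was 0.08, with 1 member lower and none higher. With the control arrays without H2O2 averaged, none of the 16 passed (7 at an unadjusted p under 0.05).

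The largest falls in these lists were of genes for amino acid uptake and breakdown. Of 19 amino acid permease genes, 8 fell and none rose (median -0.11), and 5 of 19 still fell with the control arrays without H2O2 averaged. PUT4, the proline permease, read 0.315 and 0.329 without and 0.0475 and 0.0376 with H2O2, a log2 change of -2.93 (adjusted p = 0.00142). GAP1, the general amino acid permease, read 0.504 and 0.538 against 0.122 and 0.114, a log2 change of -2.14 (adjusted p = 0.00169). AGP1, a permease of broad range, and AGP2 had -2.09 and -2.34 (each adjusted p = 0.00393). Of 15 breakdown genes, 5 fell and 1 rose (median -0.87). GCV1, of the glycine cleavage system, had -1.79 (adjusted p = 0.00580), UGA1, which breaks down gamma-aminobutyrate, -1.63 (adjusted p = 0.0100), and PDC6, a minor pyruvate decarboxylase, -0.99 (adjusted p = 0.0107). ASP1, the cytosolic asparaginase, rose by 0.89 (adjusted p = 0.00866). With the control arrays averaged, none of the 15 passed (7 at an unadjusted p under 0.05).

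Of 20 further biosynthetic genes tested, 2 rose and 3 fell (median -0.13), shares near those of all genes. HIS6, an isomerase of histidine synthesis, had 0.84 (adjusted p = 0.0111), against the falls of HIS4 and HIS5. AAT1, the mitochondrial aspartate aminotransferase, had 1.58 (adjusted p = 0.0299). SHM2 (cytosolic serine hydroxymethyltransferase) had -1.16 (adjusted p = 0.0372) and ALT1 (alanine transaminase) -0.74 (adjusted p = 0.0412). HIS3 of the histidine pathway was the sole gene of the list left out of the test: it read 11.6 and 10.9 units on the untreated control arrays and 4.18 and 6.08 units on the treated ones, and its probe had no flag for signal well above background on any of the 8 arrays. Of 16 transcriptional regulators of pathways, 1 rose and none fell (median 0.18). The riser was BAS1, an activator of HIS4 and of purine genes. It went from 0.177 and 0.192 to 0.394 and 0.543 (log2 change 1.32, adjusted p = 0.0109). With the control arrays without H2O2 averaged, none of these 20 and 16 genes passed in limma (4 and 1 at an unadjusted p under 0.05).

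**Figure D4:**
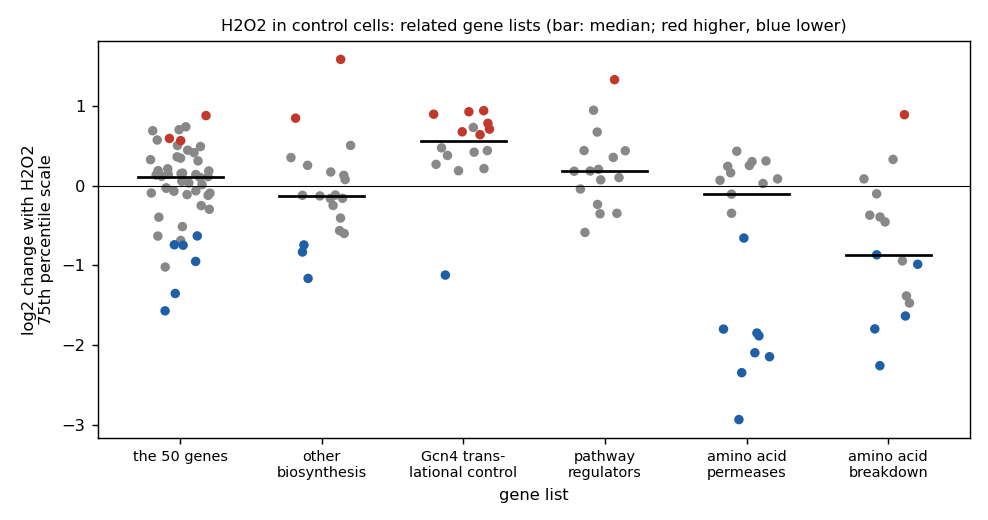
The log2 change with 4 mM H2O2 in control cells (vertical axis) is drawn for every tested gene of the 50 members and of 5 related lists, spread sideways for visibility. Bars are list medians, red and blue mark an adjusted p under 0.05. The median of the translational control list lies at 0.55 and that of the breakdown list at -0.87, while that of the 50 genes lies at 0.11.

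On the arrays labelled mutant, most of these probes were close to background. The median member read 37113 and 37349 units on the untreated control arrays and 21551 and 31389 units on those with it, against 7.95 and 7.09 units on the arrays labelled mutant without H2O2 and 6.68 and 10.3 units with it. Of the 50 probes, 20 and 12 were well above background on the arrays labelled mutant without H2O2 and 10 and 21 on those with it, 25 were so on none of the 4, and 44 read under 20 units on all 4 (88%, against 87.9% of all genes). The median E1A spike-in probe read 607 and 414 units on the arrays labelled mutant without H2O2 and 554 and 488 units on those with it. On the control arrays it read 394 and 429 units without H2O2 and 332 and 515 units with it. Fewer cells, less RNA per cell, poorer RNA and less sample RNA taken for labelling cannot be told apart here, and the cause was not tested. For some of the genes named below, strain values are thus given in units as well as on the relative scale.

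ARO2 and ILV5 were the 2 members with at least 100 units on all 4 arrays labelled mutant, which 1.96% of all genes had. ARO2, which encodes chorismate synthase, read 450 and 1228 units without H2O2 and 1329 and 1131 units with it, against 51739 and 52536 units on the control arrays without H2O2. ILV5 read 412 and 430 units without and 630 and 820 units with H2O2, against 60293 and 70970 units on the control arrays without H2O2. PRO2 followed with 104, 94.5, 100.4 and 116 units. Beside these 3, ARO3, ARO7, HOM2 and HOM3 (aspartate kinase) and LYS21 were well above background on all 4, which 17.7% of all genes were. GCN4 read 10.6 and 12.7 units without and 9.59 and 12.7 units with H2O2, and was well above background on 3 of the 4.

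**Figure D5:**
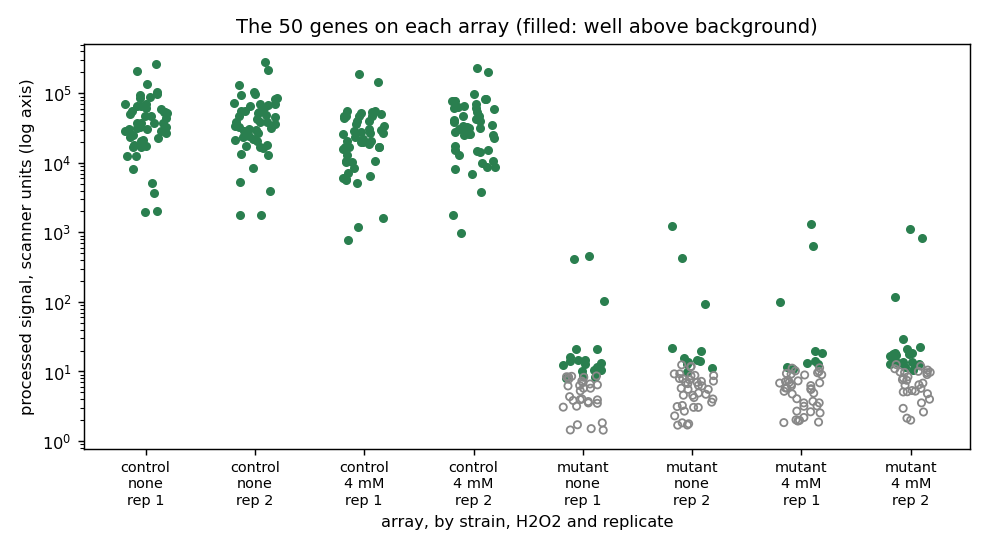
Processed signal in scanner units (vertical log axis) is drawn for the 50 genes on each of the 8 arrays, with filled points well above background and open points not. All 50 are filled on the control arrays, and 20, 12, 10 and 21 are filled on the arrays labelled mutant, from left to right.

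Relative to each array's 75th percentile, 40 members were lower and 8 higher on the arrays labelled mutant than on the control arrays without H2O2 (limma, adjusted p under 0.05), where 28.8% of all genes were lower and 50.5% higher (79.3% in either direction). Of the 50, 38 were not well above background on both of these arrays labelled mutant and entered the test through the control arrays, where they are bright. Among the 12 that were, 6 were lower and 5 higher, beside 14.2% and 72.9% of 1426 such genes. The direction of the higher ones belongs to that scale: on the E1A spike-in scale all 50 were lower and none higher, beside 99.5% and 0.0496% of all genes. ARO3 had a log2 difference of 3.48 (adjusted p = 9.93e-07) that became -7.02 on the spike-in scale. For ILV5 it was 3.25 (adjusted p = 7.82e-06) and -7.25, for ARO7 2.09 (adjusted p = 1.34e-05) and -8.41, for PRO2 2.00 (adjusted p = 2.16e-05) and -8.50, and for ARO2 4.40 (adjusted p = 0.000103) and -6.10. ILV2, the catalytic subunit of acetolactate synthase, GCN4 and HOM2 were lower on the relative scale too, at -1.87, -2.37 and -1.68 (adjusted p = 1.45e-05, 1.49e-05 and 0.000113). In the authors' deposited table for this comparison they were down with corrected p = 0.0325, 0.0711 and 0.0168 (unpaired test).

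For the 3 members with the brightest control signal the loss is a bound or rests on 1 array. ASN2 read 211947 and 217430 units on the untreated control arrays and 7.29 and 8.80 units on those labelled mutant. It was at least 18.4-fold lower on the relative scale. LEU4 read 134709 and 133201 units against 1.44 and 1.83 units, at least 11.9-fold lower. Neither probe was well above background on the 2 arrays labelled mutant. Both entered the fit through the control arrays, and the fit does not test a bound, so no p-value is given. These bounds set the mean of the bright group against a floor on each dim array, which is the dim probe's signal or the weakest signal flagged well above background, whichever is higher. BAT1 was well above background on 1 of the 2, also entered through the control arrays, and had a log2 difference of -4.26.

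With H2O2 in both strains the counts were 39 lower and 8 higher of 50, beside 28.3% and 51.7% of all genes (80% in either direction). Among the 10 members well above background on all 4 arrays compared, 5 were lower and 5 higher, beside 14% and 75.9% of 1318 such genes, and the other 40 entered through the control arrays. On the spike-in scale 50 were again lower and none higher, beside 99.4% and 0.0827% of all genes. As bounds of the same kind, with no p-value given, ASN2 was at least 20.8-fold lower and LEU4 at least 7.98-fold on the relative scale. In the authors' deposited table for medium with H2O2, 20 of 50 members were down and 6 up at a corrected p under 0.05, beside 20.9% and 25% of its probes. In the authors' deposited table for medium without it 27 were down and 6 up, beside 20.7% and 25.6% of its probes.

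Within the arrays labelled mutant, no member passed the limma test for H2O2, and 2 of 6045 genes (0.0331%) did. At an unadjusted p under 0.05 in that test there were 10 members, beside 759 of 6045 genes. The effect of H2O2 on those arrays minus that in control cells was higher for 3 members and lower for 1, beside 6% and 5.57% of all genes (11.6% in either direction). Of the 50 probes, 8 were well above background on all 4 arrays labelled mutant, and among these 8 the difference was called for ARO7 alone when signal on all arrays was required.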

How the data were processed

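Gene expression was measured in 8 samples, 1 array each, and groups were taken from the sample titles. The members and lists were chosen with earlier results of these data known. Per the file headers, the authors' scanner files hold a background-subtracted spot intensity (processed signal) from Feature Extraction 10.7.1.1. The authors' deposited tables hold Benjamini-Hochberg corrected p-values from an unpaired test, absolute fold changes with their direction, and log2 values from an experiment named as quantile, per the file headers. Not used were 8 columns of raw values there, and 4 rows of each table were emptied for this work. Positions come from the tables' R64-1-1 descriptions, while the array grid names sacCer2. A RefSeq gene table, used for names alone, matched 5720 of 6225 genes.

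Log2 signals of the 2 spots of a probe were averaged, less the array's 75th percentile. Control spots (536 an array) and outlier spots (0 to 7) were left out, and no spot was saturated. For 29 genes with several probes the brightest was used. The filter kept 6045 genes that both arrays of some group showed well above background. They entered a single limma fit (version 3.58.1, R 4.3.3) of the 4 groups, with 4 residual and 3.10 prior degrees of freedom. Tests were two-sided, with Benjamini-Hochberg adjustment per comparison (5 comparisons). The spread is pooled over the 4 groups. An exact permutation test of 2 against 2 arrays cannot go below p = 0.333. The script was tested on simulated data. Isoenzyme differences were added to the fit as 6 further features.

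Named were GCN4, members past the threshold for H2O2 in control cells, both genes of 6 isoenzyme pairs, up to 3 called genes per direction of each other list by smallest adjusted p (AGP1 and AGP2 share theirs, and 1 gene is not reported here), and, between strains, up to 8 members well above background on both arrays of a mutant group by smallest adjusted p and the 3 with the brightest control signal. The alternatives were scaling on array medians, quantiles or E1A spike-in probes, normexp background correction (offset 50), other filters and probe rules, other fits, the authors' log2 values, and leaving out arrays. Scaling on the 7 brightest of 10 spike-in probes was added after seeing the data. Promoter and protein sequences were not used here.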

Additional observations from a re-analysis of the deposited data

Results flagged for a closer look

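For 4 members the effect of H2O2 differed between the arrays labelled mutant and the control arrays by the interaction term of the fit (limma, 75th percentile scale), as it did for 11.6% of all genes. For BAT2 the log2 change was 1.20 on the arrays labelled mutant and -1.02 in control cells, a difference of 2.22 (adjusted p = 0.0375). For ARG4 the changes were 0.51 and -0.63, a difference of 1.15 (adjusted p = 0.0453), and for CPA1 -0.35 and -1.35, a difference of 1.00 (adjusted p = 0.0467). For ARO7 they were -0.17 and 0.87, a difference of -1.05 (adjusted p = 0.0337).

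Signals on the arrays labelled mutant were low for all 4 genes. BAT2 read 1.71 and 2.69 units on the arrays labelled mutant without H2O2 and 3.54 and 9.84 units on those with it, and ARG4 3.48, 2.30, 4.06 and 5.32 units. Neither was well above background on any of the 4. CPA1 read 14.4, 9.89, 8.91 and 13.1 units, well above background on 3 of the 4, and ARO7 16.2, 13.9, 13.1 and 18.2 units, well above on all 4. With signal required on all arrays compared, ARO7 alone of the 4 was tested and called. None of the 4 differences passed when the control arrays without H2O2 were averaged, nor after quantile normalization.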

How the results depend on the processing

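For H2O2 in control cells the counts (3 members higher, 6 lower) kept within 1.5 times under array median scaling, no filter or a stricter filter on dim probes, averaged probes and a variance trend. They became 0 higher and 0 lower after quantile normalization and with the control arrays without H2O2 averaged, and 0 higher on either spike-in scale, where all genes shift down. With normexp they were 18 higher and 13 lower, and with the compared groups fitted alone 14 and 12. Leaving out 1 array gave 0 to 5 higher and 0 to 7 lower. Between strains without H2O2 (8 higher, 40 lower), the count higher was 0 on either spike-in scale, and asking for signal on all arrays left 5 higher and 6 lower of 12 tested; leaving out 1 array gave 7 to 8 and 38 to 40. With H2O2 (8 higher, 39 lower), the count higher was 4 under median scaling, 0 on either spike-in scale and 5 with the authors' log2 values, the stricter filter left 5 and 5 of 10, and leaving out 1 array gave 7 to 8 and 38 to 40. For the effect of H2O2 within the arrays labelled mutant (0 and 0), quantile normalization and leaving out 1 array gave up to 2 higher and 0 lower.

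For the interaction (3 higher, 1 lower), quantile normalization and averaged control arrays gave 0 and 0, spike-in scaling 0 lower, normexp 12 and 13, the stricter filter 0 higher, a variance trend 2 lower, and leaving out 1 array 0 to 4 and 0 to 4. The replicate number as a block gave 1 higher and 0 lower there, and 2 higher and 6 lower for H2O2 in control cells. The labels do not say that a number pairs samples, and deviations of same-numbered arrays correlated at -0.072 to 0.21 between groups.

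Among named genes the sign turned for H2O2 in control cells after quantile normalization for BAT1 (-1.03), ASN2 (-0.33), BAT1 against BAT2 (-0.27) and ASN1 against ASN2 (0.39). On the spike-in scale of 10 probes and that of 7 probes it turned for GCN4 (-0.38 and -0.45), LYS20 (-0.067 and -0.14), BAT1 (-0.36 and -0.43), ASN1 (-0.34 and -0.41), LYS21 (-0.32 and -0.39), ASN2 (-0.29 and -0.36), HIS7 (-0.15 and -0.22) and PRO1 (-0.14 and -0.20), and on that of 7 probes for HIS1 (-0.060) and HOM6 (-0.047). Between strains without H2O2 it turned on the same scales for ARO3 (-7.02 and -7.34), ILV5 (-7.25 and -7.57), ARO7 (-8.41 and -8.74), PRO2 (-8.50 and -8.82) and ARO2 (-6.10 and -6.42). Beyond the shift of scale, causes of these changes were not tested. The number of arrays, 2 a group, and signal near background on the arrays labelled mutant limit all values.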
